A study of Mus musculus with 12 samples.

Results

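The 10 genes described here are Fos, Fosb, Jun, Junb, Egr1, Atf3, Ier2, Ier3, Dusp1 and Zfp36, immediate early genes whose transcripts are also known to build up when tissue is taken apart. They were taken by symbol from the deposited table of colonic crypt RNA-seq, which lists 55471 genes. All 10 were among the 14610 genes with enough reads to be tested. Crypts, the epithelial pits of the colon, were freed with 30 mM EDTA from 12 mice, 3 in each of 4 groups, and libraries for mRNA were made from the total RNA of each mouse. Every mouse was C57BL/6J in the labels, and the study's methods give females of 8 weeks as the default. CBPWTp53-floxed mice carried wild-type CBP (Crebbp, a transcriptional coactivator and acetyltransferase) and floxed Trp53 without Cre. CBPAAp53-floxed mice had the same floxed Trp53 and a CBP in which 2 serines were replaced by alanines, a knock-in present in all cells and not in the epithelium alone. CBPWTp53ΔIEC and CBPAAp53ΔIEC mice carried in addition Villin-Cre, which deletes the floxed Trp53 in intestinal epithelial cells only, so other cells in a preparation keep p53. The labels write these groups as WT, AA, Vil_p53KO_WT and Vil_p53KO_AA. Each library came from a separate mouse, and the labels do not say whether equal replicate numbers mark a shared litter or day.

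Immediate early genes are transcribed within minutes of a stimulus without new protein synthesis, because the factors that switch them on (SRF with its ternary complex partners, and CREB with CBP as coactivator) already sit in the cell and are activated by MAP kinases. Their transcripts are short-lived, in part through AU-rich elements in the 3′ UTR. Many of the proteins are transcription factors of the AP-1 family, and others, such as the phosphatase DUSP1 and the RNA-binding protein ZFP36, shut the response down again. In tissues that are cut, chilled and incubated before lysis the same genes are a familiar sign of handling, so their levels were read across groups and, first, across single libraries.

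Libraries held from 11177430 to 18029125 counted reads, and the 12 pairs of libraries within groups all differed by more than sampling noise. Trp53 stood at 23.3 to 33.5 TPM (a level per transcript length, scaled to the same total in each library) in the 6 floxed libraries and at 3.26 to 6.13 TPM in the 6 libraries with Villin-Cre, the order that the labels give. The 12 epithelial markers (Epcam, Cdh1, Vil1 and others) were all tested and summed to 17890 to 25640 TPM per library. Markers of other cells were low: 8 of 10 fibroblast and smooth muscle genes had at most 10 reads in every library (list sum 4.18 to 8.36 TPM), as did 6 of 8 endothelial genes (2.57 to 4.205 TPM, Cdh5 at 0), and the 10 leukocyte genes summed to 6.26 to 24.1 TPM. The label of colonic crypts was at odds with 4 libraries. Transcripts of Paneth cells, which belong to the small intestine (Lyz1, Defa17, Defa24, Defa30 and Mmp7, summed), reached 838 TPM in CBPAAp53-floxed replicate 2, 15500 in CBPWTp53ΔIEC replicate 1, 2090 in CBPAAp53ΔIEC replicate 1 and 3830 in CBPAAp53ΔIEC replicate 3, against 4.00 to 52.5 TPM in the other 8 libraries. Ang4 and Itln1, also on the Paneth list, were left out of this sum. Ang4 was highest in CBPAAp53-floxed replicate 3 (11780 TPM), where all 7 genes of the list summed to 12040 TPM. With all 7 the sums were 4051 TPM in CBPAAp53-floxed replicate 2 and 4572 in CBPAAp53ΔIEC replicate 1. By Paneth genes, the choice of the 4 libraries thus rests on the genes summed. A list of small intestine enterocyte genes (Fabp6, Apoa1 and others) was read as the median log2 difference from the mean of the 12 libraries. It stood at 1.56, 3.59, 0.197 and 2.93 in these 4, in the order above, and at -1.39 to -0.645 in the other 8 libraries. By summed TPM of that list, CBPAAp53ΔIEC replicate 1 (1716) was close to CBPAAp53-floxed replicate 1 (1660). Values without these 4 libraries are given beside the results they touch, and the part of this RNA in any result was not tested. Without them replicate 2 alone stands for CBPAAp53ΔIEC mice, so such values in any comparison with this group rest on a single mouse there. In bulk RNA, fewer cells of a type and less RNA per cell cannot be told apart.

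By mean TPM over the 12 libraries, Fos and Ier2 stood higher than 94.5% and 94.0% of the genes tested, Jun and Junb higher than 91.7% and 91.5%, and Zfp36 higher than 88.6%. Atf3, Ier3, Dusp1 and Egr1 lay in the middle of the range (67.8%, 63.0%, 56.7% and 51.1%), and Fosb stood near the bottom, at 12.2%. No gene was at 0 in any library: the fewest reads were the 24 of Fosb, whose counts ran to 100, and Ier3 had 92 to 194. The ratio of the highest to the lowest library was largest for Fosb (4.35), Atf3 (3.67) and Egr1 (3.46) and smallest for Jun (1.63), Ier3 (1.61) and Ier2 (1.43) on the TPM scale. The plot of levels by library shows every value.

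**Figure D1:**
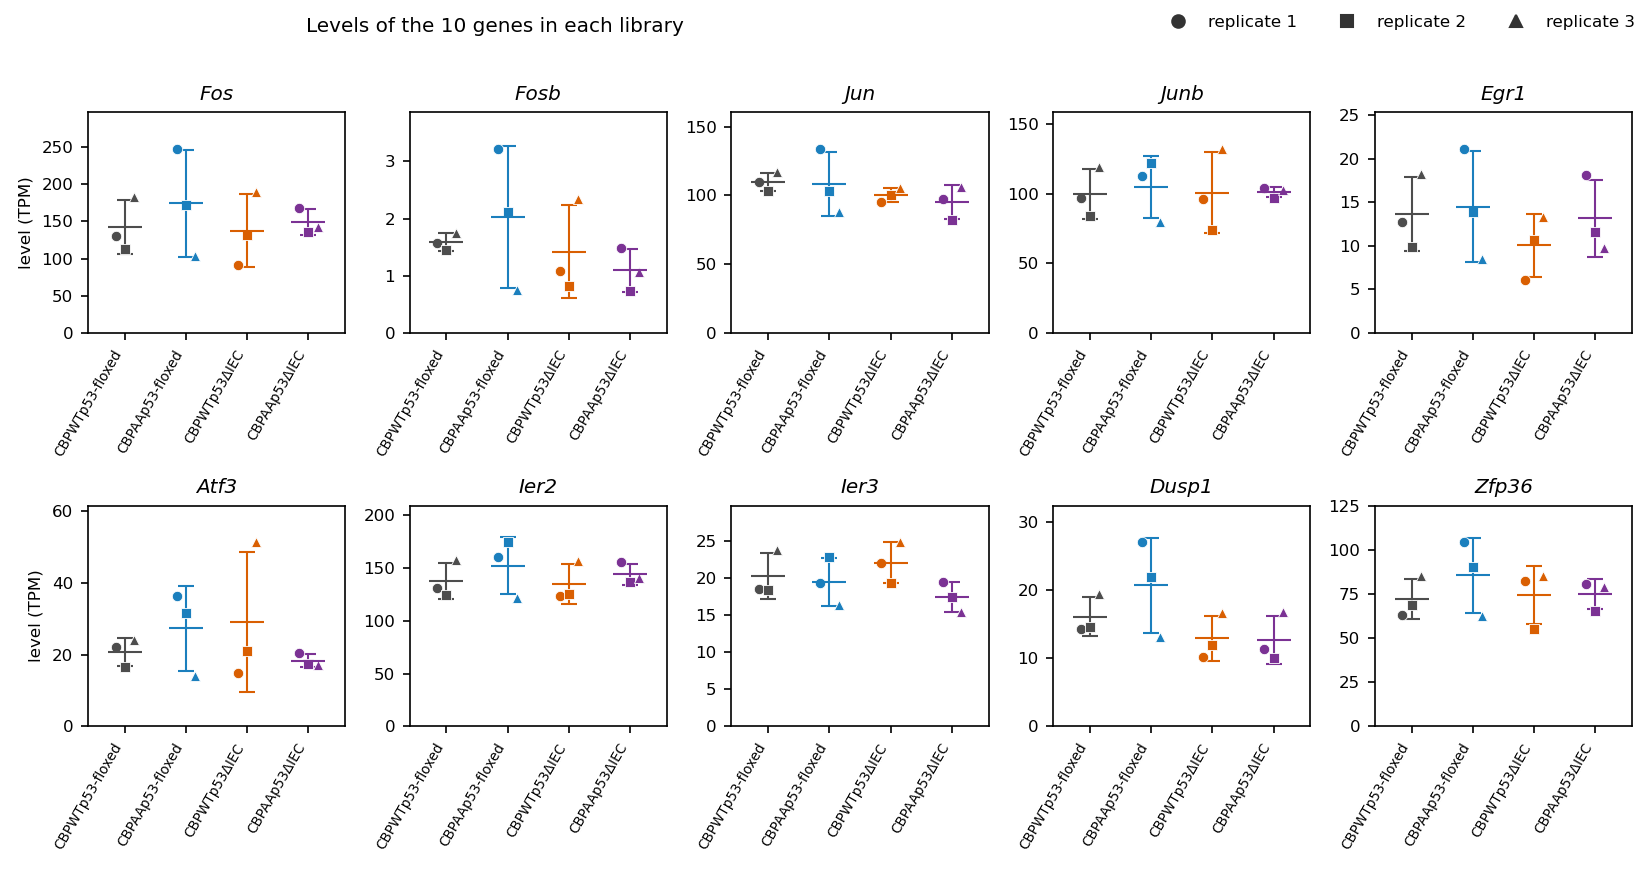
Level of each of the 10 genes (TPM, linear axis from 0, 1 panel per gene) in the 4 groups; points are single mice, shaped by replicate number, and the horizontal line and bar give the mean ± SD of 3 mice. The groups overlap in every panel, and CBPAAp53-floxed replicate 1 is the highest of the 12 libraries for Fos, Fosb, Jun, Egr1, Dusp1 and Zfp36.

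Most of the genes are compact. In GENCODE vM21 (GRCm38), from which all gene positions here are taken, their spans had a median of 3852 bases and their longest coding transcripts a median of 2 exons, beside 17336 bases and 7 exons over 21901 protein-coding genes. The annotated spans of Dusp1 (56539 bases) and Atf3 (47744 bases) exceed this median of all protein-coding genes. Their longest coding transcripts have 1990 and 1984 bases, and the RefSeq starts used below lie inside both spans, so these spans can overstate the size of the genes. Jun, Junb and Ier2 have 1 exon. The 3′ UTR of Fos, Dusp1 and Zfp36, which is 30.0% of the 10 genes, held the AU-rich nonamer TTATTTATT, the core of elements through which ZFP36 itself is known to bring about decay, beside 6.51% of all protein-coding genes. The sites are shown because 2 of the 3 genes that hold the nonamer, Dusp1 and Zfp36, are inhibitors of the response. The nonamer is in capitals within 29 bases of the sense strand, at chr12:85477103-85477131 (+) for Fos, 1 of 2 matches at chr17:26506159-26506187 (-) for Dusp1 and chr7:28376951-28376979 (-) for Zfp36, all GRCm38.
Fos: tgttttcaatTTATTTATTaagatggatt
Dusp1: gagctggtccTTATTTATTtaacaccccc
Zfp36: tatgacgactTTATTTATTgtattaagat

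RefSeq promoters (GRCm38.p6, 250 bases before to 50 after the start) were at hand for 8 of the 10 genes, all but Egr1 and Ier2, and for 32851 promoters in all. They are shown because CBP was first known as the coactivator of CREB, whose site, the cAMP response element (CRE), is TGACGTCA. On either strand, this full site lay in 1 of the 8 windows, that of Dusp1 (143 to 136 bases before the start), and in 1.79% of all windows. The shorter CRE core TGACG, which the full site contains, lay in 5 of 8 (Fos, Fosb, Junb, Atf3 and Dusp1) and in 20.8% of all windows. The AP-1 site TGANTCA was in 0 of 8 and 7.81%. The EGR site GCGNGGGCG was in Fosb and Zfp36 and 5.55%, and the CArG box of SRF in Zfp36 (58 to 49 bases before the start) and 1.63%. TATAAA was in Fos (33 to 28 bases before the start) and Junb (not before the start) and 13.6%. Sites more than 250 bases before a start were not read, nor any of Egr1 and Ier2. A match describes letters and is no evidence that a factor was bound. For Dusp1 the RefSeq start lies within the GENCODE span of the gene (chr17:26505590-26562128, -), not at its upstream end. The 250 bases before the start follow for Fos (chr12:85473640-85473889, +) and Dusp1 (chr17:26508473-26508722, -), 5′ to 3′, with the CRE, its core and TATAAA in capitals.
Fos: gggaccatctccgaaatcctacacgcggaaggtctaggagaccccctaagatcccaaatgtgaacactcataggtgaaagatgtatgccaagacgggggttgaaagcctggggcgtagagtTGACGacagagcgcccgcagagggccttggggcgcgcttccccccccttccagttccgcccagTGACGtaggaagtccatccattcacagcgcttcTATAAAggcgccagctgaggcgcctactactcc
Dusp1: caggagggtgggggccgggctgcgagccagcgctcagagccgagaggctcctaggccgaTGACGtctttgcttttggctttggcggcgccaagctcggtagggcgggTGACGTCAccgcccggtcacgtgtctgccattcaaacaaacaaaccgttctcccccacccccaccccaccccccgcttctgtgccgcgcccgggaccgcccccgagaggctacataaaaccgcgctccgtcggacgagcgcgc
Some values are uncertain in kind: in the annotation Jun overlaps Junos, Junb overlaps Prdx2, Atf3 overlaps Gm24748, Zfp36 overlaps Gm44710, and Dusp1 overlaps Ergic1 and Gm8225, each on the opposite strand. Dusp1 also shares its strand with the models AC122252.1 and AC122252.4. Whether counting used strand is not given in the sources used here, so reads of such neighbours cannot be told apart.

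Fos (ENSMUSG00000021250, chr12:85473890-85477273, +), the partner that gives AP-1 dimers their stability on DNA, had the highest mean level of the set. Fos stood at 130.5, 113 and 183 TPM in replicates 1, 2 and 3 of CBPWTp53-floxed mice (mean ± SD 142 ± 36.4) and at 247, 171 and 104 TPM in CBPAAp53-floxed mice (174 ± 71.8). In CBPWTp53ΔIEC mice its TPM was 91.9, 132 and 189.01 (138 ± 48.8), and in CBPAAp53ΔIEC mice 168, 135 and 142 (149 ± 17.4). The highest and the lowest library of CBPAAp53-floxed mice lay on either side of all 3 CBPWTp53-floxed mice, and no group stood clear of another. Fosb (ENSMUSG00000003545, chr7:19302696-19310051, -), its close relative, was scarce. Fosb stood at 1.57, 1.44 and 1.75 TPM in replicates 1, 2 and 3 of CBPWTp53-floxed mice (mean ± SD 1.59 ± 0.155) and at 3.22, 2.11 and 0.743 TPM in CBPAAp53-floxed mice (2.02 ± 1.24). With Villin-Cre the TPM was 1.08, 0.829 and 2.35 (1.42 ± 0.813) in CBPWTp53ΔIEC mice and 1.49, 0.740 and 1.07 (1.10 ± 0.374) in CBPAAp53ΔIEC mice. CBPAAp53-floxed mice alone ran from the highest to nearly the lowest value of the study.

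Jun (ENSMUSG00000052684, chr4:95049034-95052222, -) and Junb (ENSMUSG00000052837, chr8:84974484-84978718, -), partners of Fos, were steadier. Jun stood at 109.7, 103 and 117 TPM in replicates 1, 2 and 3 of CBPWTp53-floxed mice (mean ± SD 109.9 ± 6.83) and at 134, 103 and 88.2 TPM in CBPAAp53-floxed mice (108 ± 23.2). CBPWTp53ΔIEC mice had 95.5, 100.3 and 105 (100.4 ± 4.94) TPM of this transcript and CBPAAp53ΔIEC mice 97.6, 82.1 and 106 (95.3 ± 12.2) TPM. The group means followed the order CBPWTp53-floxed, CBPAAp53-floxed, CBPWTp53ΔIEC, CBPAAp53ΔIEC, but each step was smaller than the larger SD of its neighbours. Junb stood at 97.2, 83.8 and 119 TPM in replicates 1, 2 and 3 of CBPWTp53-floxed mice (mean ± SD 100.1 ± 17.9) and at 113, 122 and 79.6 TPM in CBPAAp53-floxed mice (105 ± 22.4). In CBPWTp53ΔIEC mice its TPM was 96.04, 74.3 and 132 (101 ± 29.3), and in CBPAAp53ΔIEC mice 104, 96.9 and 103 (101 ± 3.74). For Junb the 4 group means nearly coincided. Atf3 (ENSMUSG00000026628, chr1:191170296-191218039, -), a stress-induced factor of the ATF/CREB family that pairs with JUN proteins, differed widely between mice of a group. Atf3 stood at 22.03, 16.5 and 23.99 TPM in replicates 1, 2 and 3 of CBPWTp53-floxed mice (mean ± SD 20.8 ± 3.87) and at 36.5, 31.7 and 14.00 TPM in CBPAAp53-floxed mice (27.4 ± 11.8). CBPWTp53ΔIEC mice had 15.01, 21.1 and 51.3 (29.1 ± 19.4) TPM of this transcript and CBPAAp53ΔIEC mice 20.4, 17.5 and 17.1 (18.3 ± 1.82) TPM. The CBPWTp53ΔIEC mean rests on replicate 3, whose level was above that of all other libraries; the other replicates of that group were near the level of CBPWTp53-floxed mice.

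Egr1 (ENSMUSG00000038418, chr18:34859823-34864984, +), a zinc finger factor that follows ERK and SRF activity, varied much as Fos did. Egr1 stood at 12.8, 9.91 and 18.2 TPM in replicates 1, 2 and 3 of CBPWTp53-floxed mice (mean ± SD 13.6 ± 4.21) and at 21.1, 13.8 and 8.45 TPM in CBPAAp53-floxed mice (14.5 ± 6.36). With Villin-Cre the TPM was 6.10, 10.7 and 13.3 (10.04 ± 3.65) in CBPWTp53ΔIEC mice and 18.1, 11.5 and 9.77 (13.2 ± 4.41) in CBPAAp53ΔIEC mice. The lowest library was CBPWTp53ΔIEC replicate 1, also the lowest for Fos. Ier2 (ENSMUSG00000053560, chr8:84661331-84662852, -), a small nuclear protein of early growth responses, was nearly as abundant as Fos and varied least of all. Ier2 stood at 131.44, 124 and 158 TPM in replicates 1, 2 and 3 of CBPWTp53-floxed mice (mean ± SD 138 ± 17.5) and at 161, 174 and 122 TPM in CBPAAp53-floxed mice (152 ± 27.1). In CBPWTp53ΔIEC mice its TPM was 123, 125 and 157 (135 ± 18.7), and in CBPAAp53ΔIEC mice 156, 136 and 140.3 (144 ± 10.2). Its 12 values overlapped between all groups. Ier3 (ENSMUSG00000003541, chr17:35821684-35822923, +), an early response protein linked to cell survival and ERK signalling, was modest. Ier3 stood at 18.6, 18.4 and 23.8 TPM in replicates 1, 2 and 3 of CBPWTp53-floxed mice (mean ± SD 20.2 ± 3.11) and at 19.4, 22.8 and 16.4 TPM in CBPAAp53-floxed mice (19.5 ± 3.22). With Villin-Cre the TPM was 22.1, 19.3 and 24.9 (22.1 ± 2.76) in CBPWTp53ΔIEC mice and 19.5, 17.5 and 15.4 (17.5 ± 2.06) in CBPAAp53ΔIEC mice. Here CBPAAp53ΔIEC mice were low and CBPWTp53ΔIEC mice high: on the TPM scale the 2 groups touched (19.5 against 19.3), and in CPM (counts scaled to the normalised library size) they did not overlap.

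Dusp1 (ENSMUSG00000024190, chr17:26505590-26562128, -), a nuclear phosphatase that inactivates MAP kinases, came closest to a call of the set, in p53 deletion averaged over both CBP genotypes. Dusp1 stood at 14.3, 14.5 and 19.4 TPM in replicates 1, 2 and 3 of CBPWTp53-floxed mice (mean ± SD 16.1 ± 2.90) and at 27.01, 21.9 and 13.2 TPM in CBPAAp53-floxed mice (20.7 ± 6.99). CBPWTp53ΔIEC mice had 10.2, 11.9 and 16.6 (12.9 ± 3.34) TPM of this transcript and CBPAAp53ΔIEC mice 11.4, 10.1 and 16.7 (12.7 ± 3.54) TPM. The 6 mice with Villin-Cre lay between 10.1 and 16.7 TPM, and CBPAAp53-floxed replicates 1 and 2 were the highest of the study. CBPAAp53-floxed replicate 3 and CBPWTp53-floxed replicates 1 and 2 lay inside the range of the mice with Villin-Cre. CBPAAp53ΔIEC replicate 3 lay inside the range of CBPAAp53-floxed mice, and CBPWTp53ΔIEC replicate 3 inside that of CBPWTp53-floxed mice. Zfp36 (ENSMUSG00000044786, chr7:28376784-28380253, -), which binds AU-rich elements and brings mRNAs to decay, was the more abundant inhibitor. Zfp36 stood at 63.3, 68.9 and 85.2 TPM in replicates 1, 2 and 3 of CBPWTp53-floxed mice (mean ± SD 72.5 ± 11.4) and at 104, 90.2 and 62.5 TPM in CBPAAp53-floxed mice (85.7 ± 21.4). In CBPWTp53ΔIEC mice its TPM was 82.7, 55.5 and 85.2 (74.5 ± 16.5), and in CBPAAp53ΔIEC mice 80.7, 65.7 and 79.3 (75.2 ± 8.30). Its CBPAAp53-floxed mean was the highest and again rested on replicates 1 and 2.

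Ranked by mean TPM, CBPAAp53-floxed mice were highest for 7 of the 10 genes, CBPWTp53ΔIEC mice for Atf3 and Ier3, CBPWTp53-floxed mice for Jun, and CBPAAp53ΔIEC mice for none; CBPAAp53ΔIEC mice were lowest for 5, CBPWTp53ΔIEC mice for 3 and CBPWTp53-floxed mice for 2. In 0 of the 30 pairs of neighbours in these orders did the means differ by more than the larger SD. Neighbours in a ranking have the smallest gaps, so this says little of groups farther apart. In the comparisons between groups the difference passed the larger SD for Dusp1 in CBPAAp53ΔIEC against CBPAAp53-floxed mice (-7.97 TPM, SD 6.99). It did so for Ier3 in CBPAAp53ΔIEC against CBPWTp53ΔIEC mice (-4.61, SD 2.76) and Jun in CBPWTp53ΔIEC against CBPWTp53-floxed mice (-9.43, SD 6.83), and not elsewhere. Exact two-sided permutation tests on TPM gave p of 0.2 or more for each gene in each of the 4 comparisons between groups, where 3 mice against 3 allow no p below 0.1.

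The first comparison, CBPAAp53-floxed with CBPWTp53-floxed mice, asks what the loss of the 2 phosphorylated serines does to crypts with p53. All 10 genes were higher in CBPAAp53-floxed mice by edgeR's estimate, with a median log2 fold change of 0.31 (0.01 over all genes tested), and none passed the test. In edgeR's quasi-likelihood fit over all 12 libraries, a call needed an adjusted p (Benjamini-Hochberg) under 0.05 together with a change of more than 0.5 on the log2 scale. This called 0 of 14610 genes (0%), while 1174 (8.04%) had an unadjusted p under 0.05, and DESeq2 called 33. Among the 10 genes only Ier2 had such a p, with a log2 fold change of 0.27 (SE 0.12, 95% CI 0.01 to 0.53, edgeR unadjusted p = 0.0444, adjusted p = 0.618). Dusp1 had the next smallest, at 0.47 (SE 0.22, 95% CI -0.01 to 0.94, edgeR adjusted p = 0.618). Atf3 had the largest estimate, 0.49, with an interval from -0.27 to 1.26, and Fos 0.39, from -0.12 to 0.89. For Jun and Ier3 the estimates were 0.09 (-0.18 to 0.37) and 0.08 (-0.31 to 0.46). No gene had groups that did not overlap in CPM, beside 19.4% of all genes. On the TPM scale Jun and Ier3 had lower means in CBPAAp53-floxed mice and the other 8 higher ones, and over all settings tried 8 to 10 of the 10 genes had a positive estimate. Without the 4 libraries with Paneth transcripts 9 were higher (median 0.24), and none was called. Without CBPAAp53-floxed replicate 1 the median was 0.18. The general epithelial markers had the same direction in this comparison, with 12 of 12 estimates above 0 (median 0.20) and 0 called, and their part in the values of the 10 genes was not tested.

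Deletion of p53 in CBPAA mice (CBPAAp53ΔIEC with CBPAAp53-floxed) gave the opposite signs: all 10 genes were lower in CBPAAp53ΔIEC mice, with a median log2 fold change of -0.30 (0.01 over all genes). None was called, beside 0.0274% of the genes tested, and 3 had an unadjusted p under 0.05, beside 12.6%. Dusp1 had the smallest, at -0.80 (SE 0.22, 95% CI -1.28 to -0.32, edgeR unadjusted p = 0.00322, adjusted p = 0.32). Fosb stood at -0.97 (SE 0.42, 95% CI -1.88 to -0.05, edgeR adjusted p = 0.385) and Jun at -0.30 (SE 0.13, 95% CI -0.58 to -0.03, edgeR adjusted p = 0.374). Atf3 followed with -0.69 (-1.46 to 0.09) and Fos with -0.33 (-0.83 to 0.17). No gene's groups were apart in CPM (15% of all genes). Of the 12 epithelial markers 10 had negative estimates here (median -0.14), with 0 called. The CBPAAp53-floxed libraries serve in both comparisons, so the opposite signs share these 3 libraries and are not 2 independent observations. Dusp1 was called without CBPAAp53ΔIEC replicate 3 (-1.08, edgeR adjusted p = 0.0252), and over all settings its value ran from -1.11 to -0.64 with adjusted p from 0.0252 to 0.777. The median of the 10 genes was -0.235 without CBPAAp53-floxed replicate 1, where 9 were lower and 1 higher. It was -0.447 without CBPAAp53-floxed replicate 3, -0.232 without CBPAAp53ΔIEC replicate 2 and -0.154 with limma on log2(TPM + 1). Without the 4 libraries with Paneth transcripts the 10 genes were all lower, with a median of -0.47. CBPAAp53ΔIEC replicate 2 alone then stood for its group, and in it the 10 genes had their lowest median of the 12 libraries (-0.25).

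With p53 deleted in both arms (CBPAAp53ΔIEC with CBPWTp53ΔIEC mice), 3 of the 10 genes were higher and 7 lower in CBPAAp53ΔIEC mice (median -0.04, all genes -0.01), and none was called (0.00684% of all genes). Ier3 was the exception to the overlap between groups, 1 of 10 genes beside 9.26% of all genes. Its log2 fold change was -0.39 (SE 0.18, 95% CI -0.78 to -0.0013, edgeR unadjusted p = 0.0493, adjusted p = 0.985), and 3.57% of all genes had an unadjusted p under 0.05. Atf3 stood at -0.64 (-1.42 to 0.13), where the mean of CBPWTp53ΔIEC mice rests on replicate 3, as described. In the intervals of Junb (-0.43 to 0.35), Ier2 (-0.21 to 0.31) and Zfp36 (-0.47 to 0.37) no value above 0.5 in size lay within the bounds. The median of the 10 genes depended on single libraries: it was -0.22 with 8 genes lower without the 4 libraries with Paneth transcripts, where CBPAAp53ΔIEC replicate 2 alone stood for its group. Without CBPWTp53ΔIEC replicate 2 it was -0.195 with 8 lower. Leaving out CBPAAp53ΔIEC replicate 3 gave -0.17, while 6 genes were higher without CBPWTp53ΔIEC replicate 3 (median 0.05) or without CBPAAp53ΔIEC replicate 2 (0.02). Of the epithelial markers 11 of 12 had negative estimates (median -0.17) and 0 were called.

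Deletion of p53 in mice with wild-type CBP (CBPWTp53ΔIEC with CBPWTp53-floxed) called 460 genes (3.15%) and none of the 10, of which 5 were higher and 5 lower in CBPWTp53ΔIEC mice (median -0.02, all genes 0.01). None had an unadjusted p under 0.05, beside 20.9% of all genes, and no gene's groups were apart in CPM, beside 30.8%. The estimates farthest from 0 were those of Atf3, 0.45 (-0.31 to 1.22), Egr1, -0.44 (-1.10 to 0.22), and Dusp1, -0.30 (-0.78 to 0.18). The narrowest interval was that of Ier2, from -0.25 to 0.27 around 0.01. Without the 4 libraries with Paneth transcripts 3 genes were higher and 7 lower (median -0.10), and leaving out 1 library moved the median between -0.10 (without CBPWTp53ΔIEC replicate 1) and 0.12 (without CBPWTp53-floxed replicate 3). The epithelial markers had 11 of 12 estimates above 0 (median 0.19), with 0 called.

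Averaged over both CBP genotypes, p53 deletion called 511 genes (3.5%) and again none of the 10. All 10 estimates were negative (median -0.15, all genes 0.01), and 9 were negative without the 4 libraries with Paneth transcripts (median -0.25). Dusp1 came closest to the threshold, at -0.55 (SE 0.16, 95% CI -0.89 to -0.21, edgeR unadjusted p = 0.00394, adjusted p = 0.063), where 21.9% of all genes had an unadjusted p under 0.05. Dusp1 passed in 3 of 19 other settings: with DESeq2 (-0.56, adjusted p = 0.0185), without CBPAAp53ΔIEC replicate 3 (-0.69, edgeR adjusted p = 0.00743) and without the 4 libraries with Paneth transcripts (-0.69). In the last of these CBPAAp53ΔIEC replicate 2 alone stood for its group. In the remaining settings Dusp1 did not pass, with adjusted p up to 0.215. Jun, at -0.19 (-0.39 to 0.0007), had an adjusted p of 0.00302 from edgeR without those 4 libraries, at a log2 fold change of -0.37, under the fold cutoff. Without them Jun was also called in CBPAAp53ΔIEC against CBPAAp53-floxed mice (-0.56, edgeR adjusted p = 0.0142), where 1 CBPAAp53ΔIEC library remained and was assumed to vary like the others, and where 1053 genes were called in all. The CBP genotype averaged over both p53 states called 1 gene (0.00684%) and none of the 10, with 7 estimates above 0 and 3 below (median 0.11). Without the 4 libraries with Paneth transcripts 5 were above and 5 below (median 0.000882). The interaction of both called 1 gene (0.00684%) and none of the 10: 9 of 10 estimates were negative (median -0.34), the smallest p belonged to Atf3 (-1.14, 95% CI -2.23 to -0.05, edgeR unadjusted p = 0.0418, adjusted p = 0.482), and 10.3% of all genes had an unadjusted p under 0.05. Without the 4 libraries all 10 interaction estimates were negative (median -0.34). The epithelial markers had 12 of 12 negative interaction estimates, with a median of -0.34 and 0 called. These averages and the interaction reuse the libraries of the comparisons above.

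**Figure D2:**
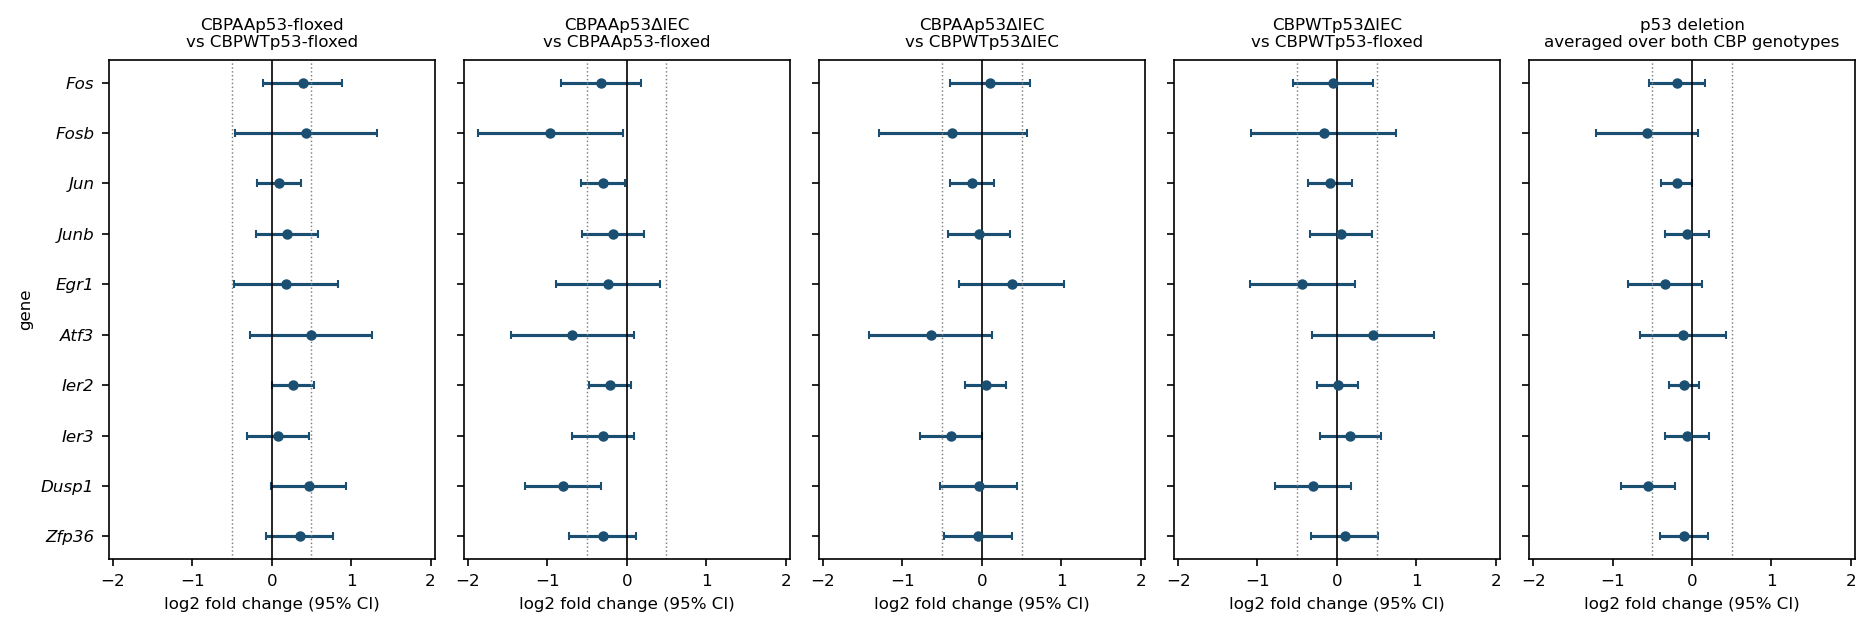
Log2 fold change of the 10 genes (x axis) in the 4 comparisons between groups and in p53 deletion averaged over both CBP genotypes; points are edgeR estimates over 12 libraries, bars are 95% confidence intervals, and dotted lines mark a log2 fold change of 0.5 in size. Estimates lie above 0 for all genes in the first panel and below 0 in the second and the last, and no gene passed the adjusted test in any panel.

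The mice of a group differed among themselves in these genes. The SD of log2 CPM between mice of a group, pooled over the 4 groups, had a median of 0.299 over the 10 genes, beside 0.215 over all genes tested, and lay above that value for 7 of the 10. Leaving out any library kept the median between 0.266 and 0.317. Fosb had the widest spread at 0.611 (higher than 93.4% of genes), followed by Atf3 at 0.491 (87.6%), Egr1 at 0.428 (83.0%) and Fos at 0.334 (73.2%). Dusp1, Zfp36 and Junb came next with 0.315, 0.283 and 0.261. Ier3 (0.198), Jun (0.160) and Ier2 (0.150) were below the median. In edgeR's terms the biological coefficient of variation ran from 12.3% for Ier2 to 35.1% for Fosb. Fosb has the fewest reads, and scarce genes have wider spreads in the plot of spread against level.

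**Figure D3:**
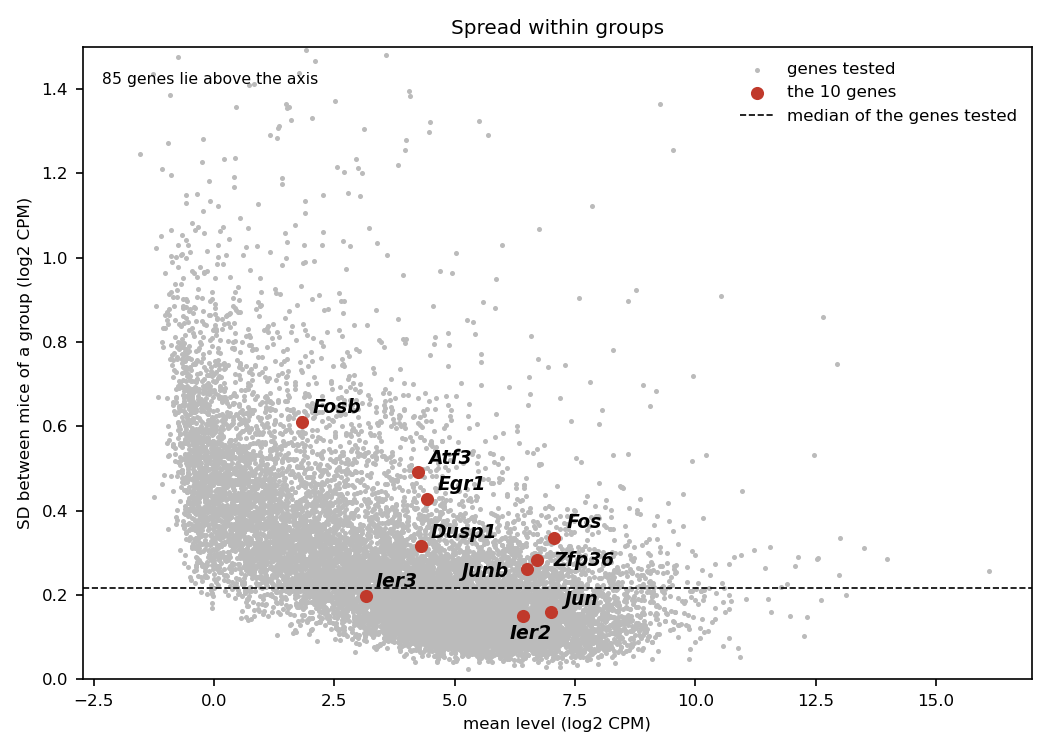
SD between mice of a group (y axis, log2 CPM, pooled over 4 groups) against mean level (x axis, log2 CPM) for the 14610 genes tested (grey) and the 10 genes (red); the dashed line is the median of all genes, 0.215, and 85 genes lie above the axis. Of the 10 genes 7 lie above the line, and Fosb, Atf3 and Egr1 are highest.

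Much of the set was high or low in the same mice. In log2 CPM, CBPWTp53-floxed replicate 3 was the highest of its group for 10 of 10 genes and replicate 2 the lowest for 9. CBPAAp53-floxed replicate 1 was highest for 7 and replicate 2 for the other 3, while replicate 3 was lowest for 9. CBPWTp53ΔIEC replicate 3 was highest for 6 and replicate 2 lowest for 6, and CBPAAp53ΔIEC replicate 1 was highest for 6 and replicate 2 lowest for 8. Measured from the mean of the 12 libraries, the median of the 10 genes was 0.52 in CBPAAp53-floxed replicate 1 and 0.37 in CBPAAp53-floxed replicate 2, but -0.08 in CBPAAp53-floxed replicate 3. Elsewhere it lay between -0.25 (CBPAAp53ΔIEC replicate 2) and 0.175 (CBPWTp53-floxed replicate 3). The high CBPAAp53-floxed mean came from 2 of 3 mice. CBPAAp53-floxed replicate 2 is 1 of the 4 libraries with Paneth transcripts, and replicate 1, at 10.1 TPM of these, is not.

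**Figure D4:**
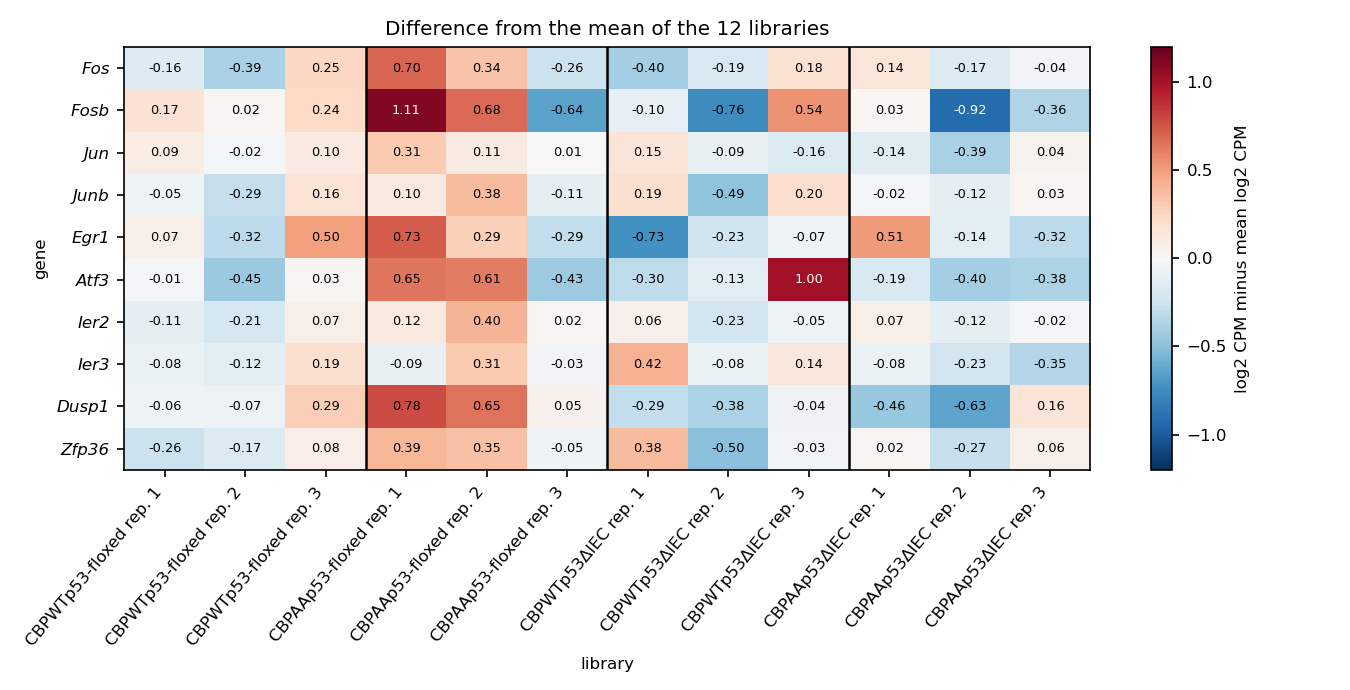
Log2 CPM of each gene (rows) in each library (columns, grouped, rep. is replicate) minus the gene's mean over 12 libraries; red is above and blue below, with the value in each cell. CBPAAp53-floxed replicates 1 and 2 are above the mean for nearly all genes, and replicate 3 of that group is near or below it.

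After subtraction of the group means, Pearson's r over the 12 libraries was positive for 45 of the 45 pairs of genes, with a median of 0.556, beside 50.1% positive and a median of 0.00125 over all pairs of the 14610 genes tested. The points of a pair share library, depth and scaling, so these values describe the libraries and are given without a test. The highest were Fos with Egr1 (0.911), Ier2 with Ier3 (0.887), Junb with Ier2 (0.877) and Fos with Atf3 (0.865). Fosb with Atf3 (0.824), Junb with Zfp36 (0.813) and Fos with Fosb (0.810) came next. The lowest was Jun with Atf3 (0.0228), and Jun with Fos stood at 0.289.

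The genes most like the set were found by their correlation with the mean standardised log2 CPM of the 10 genes, which were themselves left out. Over the 12 libraries the closest was Dusp8, a MAP kinase phosphatase (r = 0.934). Dhx35 (0.882), Ctu1 (0.859), Sgms1os1 (0.856), Gstt2 (0.847), Tap2 (0.845), Gnl1 (0.838), Vsig2 (0.833), Gtpbp2 (0.832) and Socs1 (0.831) followed. Over deviations from group means the closest were Prag1 (0.988), Dctn1 (0.974), Bag6 (0.953), Cgn (0.951), Dusp8 (0.933), Nfkb2 (0.929), Zc3h3 (0.908), Sh2b1 (0.905), Fbrs (0.904) and Hbegf (0.904). Dusp8, in both sets, stood at 4.78, 3.92 and 6.55 TPM in CBPWTp53-floxed mice and at 7.64, 5.55 and 3.69 in CBPAAp53-floxed mice. In CBPWTp53ΔIEC mice it was at 4.52, 3.57 and 6.66 TPM and in CBPAAp53ΔIEC mice at 4.61, 3.44 and 4.99. These genes were picked as the highest of all genes tested, so the size of r is no test.

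The wider pathway gave few calls. Of 42 other immediate early genes 34 were tested, and the other 8, among them Egr2, Egr3, Nr4a3, Ptgs2, Cxcl1 and Cxcl2, had at most 10 reads in every library, with Egr4 at 0. Klf4, which restrains growth in the differentiated epithelium, was abundant at 418 to 655 TPM, and Klf6 and Btg1 stood at 113 to 196 and 111 to 173 TPM. Myc stood at 28.2 to 47.9 TPM and Nr4a1 at 3.22 to 8.01 TPM. In CBPAAp53-floxed against CBPWTp53-floxed mice 24 of the 34 estimates were positive (median 0.21) and 0 were called, and in CBPAAp53ΔIEC against CBPAAp53-floxed mice 27 were negative (median -0.19) and 0 were called. Plk2, a kinase gene that p53 is known to activate, was the only gene of this list called in any comparison. Its TPM was 18.1, 21.3 and 20.6 in CBPWTp53-floxed mice and 18.3, 13.6 and 15.97 in CBPAAp53-floxed mice. With Villin-Cre it was 9.45, 14.9 and 11.5 in CBPWTp53ΔIEC mice and 11.9, 11.4 and 13.5 in CBPAAp53ΔIEC mice. All 3 CBPWTp53ΔIEC mice lay below all 3 CBPWTp53-floxed mice. Plk2 fell by 0.71 on the log2 scale in CBPWTp53ΔIEC against CBPWTp53-floxed mice (SE 0.15, edgeR adjusted p = 0.0316) and by 0.61 over both CBP genotypes (SE 0.10, edgeR adjusted p = 0.0117). The second call held in 18 of 19 other settings and was lost with limma on log2(TPM + 1) (adjusted p = 0.0527). The first held in 13 of 20 and was lost without any 1 CBPWTp53-floxed library (edgeR adjusted p = 0.0958, 0.127 and 0.154 without replicates 1, 2 and 3), without CBPWTp53ΔIEC replicate 2 (0.0523) or replicate 3 (0.117), with the replicate number as a block (0.0639) and with limma (0.0941).

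Of the other AP-1 subunits 9 of 12 were tested, and 0 were called in any of the 7 comparisons. Jund, at 224 to 380 TPM, and Atf4, at 170 to 237 TPM, had means (280.8 and 207 TPM) above the 151 TPM of Fos, and Fosl2 stood at 45.5 to 70.9 TPM. The MAP kinases, RSK and MSK kinases, SRF partners, CREB proteins and coactivators gave 26 genes, all tested and 0 called. Mapk3 (ERK1) stood at 564 to 760 TPM, Srf at 18.9 to 34.4 and Creb1 at 4.53 to 11.0, and Crebbp, which carries the knock-in, at 5.98 to 11.5. Of the other MAP kinase phosphatases 8 of 9 were tested, with Dusp6, which inactivates ERK, at 15.7 to 60.1 TPM and highest in CBPWTp53ΔIEC replicate 3; 0 were called. Zfp36l1 and Zfp36l2, the relatives of Zfp36, stood at 37.5 to 75.1 and 83.2 to 149 TPM, and 0 were called. Rps6ka4 was not analysed here.

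Heat shock genes, which report protein damage and are another usual sign of handling, were read over the same libraries. Of 12 listed 11 were tested and 0 called in any comparison. The inducible Hspa1a and Hspa1b stood at 0.890 to 10.7 and 3.79 to 30.8 TPM (near-identical copies, so the split of reads between them is uncertain), both highest in CBPAAp53ΔIEC replicate 2, the library in which the 10 genes had their lowest median. The constitutive Hspa8 and Hsp90ab1 stood at 619 to 905 and 1091 to 1511 TPM. The list's median difference from the mean of the 12 libraries was 0.17 in CBPAAp53ΔIEC replicate 2 and -0.10 in CBPAAp53-floxed replicate 1, where the 10 genes stood at -0.25 and 0.52. The heat shock median was below 0 in every floxed library (-0.14 to -0.03). It was also below 0 in CBPWTp53ΔIEC replicate 1 (-0.02) and CBPAAp53ΔIEC replicate 3 (-0.12). By summed TPM, which a few abundant genes carry, the order was another: the heat shock list was highest of the 12 libraries in CBPAAp53-floxed replicate 1 (2985 TPM), as were Hsp90ab1 and the co-chaperone gene Dnajb1, and the 10 genes also had their highest sum there (867 TPM). The 34 other immediate early genes had their highest medians in CBPAAp53-floxed replicates 2 and 1 (0.22 and 0.20) and in CBPWTp53ΔIEC replicate 3 (0.21).

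**Figure D5:**
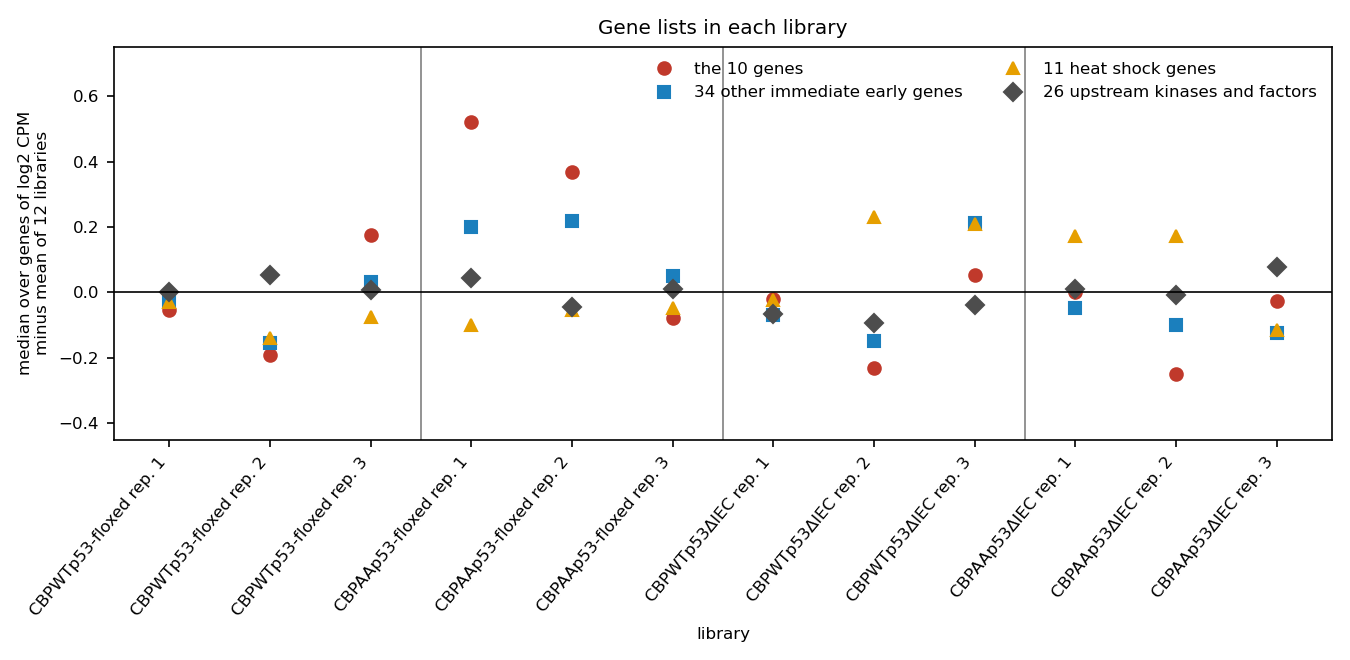
Median over genes of log2 CPM minus the mean of 12 libraries (y axis) for the 10 genes, 34 other immediate early genes, 11 heat shock genes and 26 upstream kinases and factors, in each library (x axis; vertical lines separate groups). The 10 genes are highest in CBPAAp53-floxed replicates 1 and 2, at 0.52 and 0.37. The median of the heat shock genes is below 0 there, as in every floxed library.

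Some cell markers differed with the p53 state, and their part in the values above was not tested. The crypt base and cycling cell list (Lgr5, Mki67, Pcna and others) summed to 166 to 241 TPM in the 6 floxed libraries. With Villin-Cre it summed to 238, 476 and 476 TPM in CBPWTp53ΔIEC mice and to 404, 399 and 199.7 TPM in CBPAAp53ΔIEC mice. The sum was above the floxed range in 4 of the 6 libraries, while CBPWTp53ΔIEC replicate 1 and CBPAAp53ΔIEC replicate 3 lay within it. Both hold Paneth transcripts, but so does CBPAAp53ΔIEC replicate 1, whose sum of 404 TPM was above the floxed range. Of its 10 genes, 6 were called higher over both CBP genotypes upon p53 deletion (Mki67, Top2a, Mcm5, Mcm6, Pcna and Ccnb1). The rest of the list, Lgr5, Ascl2, Axin2 and Smoc2, was called in no comparison. The DNA replication gene Mcm6 kept its call in 18 of 19 other settings, and the proliferation marker Mki67 in 6.

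Single markers of other lists were called in p53 deletion averaged over both CBP genotypes as well. Pdgfrb, a receptor of fibroblasts and pericytes at 1.81 to 6.49 TPM, fell by 0.86 on the log2 scale (edgeR adjusted p = 0.0117), a call held in 18 of 19 other settings and lost with limma (adjusted p = 0.0785). In CBPWTp53ΔIEC against CBPWTp53-floxed mice it fell by 0.97 (edgeR adjusted p = 0.0344), which held in 13 of 20. Only 2 genes of the fibroblast and smooth muscle list were tested, and the other, Vim, was not called in any comparison. Car1, a carbonic anhydrase of differentiated colonocytes, was higher by 0.62 over both CBP genotypes (edgeR adjusted p = 0.0347, held in 10 of 19). The differentiated colonocyte list as a whole was split there, with 5 estimates above 0 and 5 below (median -0.015) and only Car1 called. The bile acid transporter gene Slc10a2, a marker of small intestine enterocytes, was higher by 0.56 (edgeR adjusted p = 0.0475, held in 5 of 19) and by 0.33, under the fold cutoff, without the 4 libraries with Paneth transcripts. The leukocyte list had 0 of its 8 tested genes called, and its sums overlapped between all groups, with the highest, 24.1 TPM, in CBPAAp53ΔIEC replicate 3.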

How the data were processed

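The authors deposited 1 table with raw read counts and TPM per gene and library, and columns of fold change and adjusted p-value for 5 comparisons, which were not used. Per the labels, crypts were freed with 30 mM EDTA and libraries made with a stranded mRNA kit. The submitters' processing notes name fastp 0.20.0, FastQC 0.11.9, HISAT2 2.1.0, SAMtools 1.9, featureCounts of Subread 2.0.1 and GRCm38. The annotation release and the strand setting of counting are not given in the sources used here. Of the 55471 genes listed, 55230 had their identifier in GENCODE vM21.

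The deposited counts were tested with edgeR 4.0.16 in R 4.3.3 (filterByExpr with a minimum count of 10, TMM, robust quasi-likelihood fit of 4 groups over 12 libraries, 7 contrasts). P-values were adjusted by Benjamini-Hochberg over all 14610 genes tested. Standard errors were derived from the F statistic, and log2 CPM used a prior count of 2. The deposited TPM were printed as levels, so a level and a fold change can differ in direction. Counted reads per library ran from 11177430 to 18029125, and Fosb, with 24 to 100 reads, was measured least precisely. The script was tested on simulated data. Figures were drawn in Python 3.11.15 with matplotlib 3.10.9.

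The alternatives were DESeq2 1.42.0, DESeq2 size factors in edgeR, no filter, at least 10 counts in every library, the replicate number as a block, limma 3.58.1 on log2(TPM + 1), the 2 groups compared only and each library left out. Leaving out the 4 libraries whose summed Paneth transcripts exceeded 500 TPM was added after the marker values were seen. The genes named were the 10 genes, list genes called in a comparison and the 10 genes most correlated with the set by either measure; other list genes are given as levels and were chosen for their abundance or role. The 10 genes and the lists were chosen with earlier results of these data known.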

Additional observations from a re-analysis of the deposited data

How the results depend on the processing

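Every call in these data was read at 12 libraries, 3 mice a group, and 24 of 70 estimates of the 10 genes changed sign in some setting; none of those 24 was called anywhere, and 67 of the 70 were never called. The exceptions were Dusp1 in p53 deletion averaged over both CBP genotypes, Dusp1 in CBPAAp53ΔIEC against CBPAAp53-floxed mice and Jun in the latter. Of the 10 genes, 1 was called over both CBP genotypes with DESeq2, 1 there and 1 in CBPAAp53ΔIEC against CBPAAp53-floxed mice without the 4 libraries with Paneth transcripts, and 0 to 1 in each when 1 library was left out (Dusp1, without CBPAAp53ΔIEC replicate 3). Counts of all genes called moved far more. In the order CBPAAp53-floxed against CBPWTp53-floxed, CBPAAp53ΔIEC against CBPAAp53-floxed, CBPWTp53ΔIEC against CBPWTp53-floxed and the interaction, DESeq2 called 33, 69, 865 and 30, and without the 4 libraries with Paneth transcripts edgeR called 42, 1053, 1729 and 35, with 8 in CBPAAp53ΔIEC against CBPWTp53ΔIEC mice and 1692 for p53 deletion averaged. DESeq2 called 5 for the CBP genotype averaged. Without the filter the counts were 3 and 11 in the first pair and 2 for the interaction. With limma on log2(TPM + 1) they were 7 in CBPAAp53ΔIEC against CBPAAp53-floxed, 0 in CBPAAp53ΔIEC against CBPWTp53ΔIEC, 14 in CBPWTp53ΔIEC against CBPWTp53-floxed, 122 for p53 deletion averaged and 0 for the CBP genotype averaged; this scale moved the median of all genes to -0.0991, 0.127 and 0.132 in the first comparison, the second and the interaction. With only the 2 groups compared, the second, CBPAAp53ΔIEC against CBPWTp53ΔIEC and CBPWTp53ΔIEC against CBPWTp53-floxed gave 1, 0 and 723. Leaving out single libraries gave 0 to 2, 1 to 326, 0 to 1 and 1 to 906 in the 4 comparisons between groups, 105 to 1073 for p53 deletion averaged, 1 to 1 for the CBP genotype averaged and 0 to 1 for the interaction. The 326 came without CBPAAp53ΔIEC replicate 3, and the 906 and 1073 without CBPWTp53ΔIEC replicate 1, the library richest in Paneth transcripts; the counts of 1, 2 and 7 for CBPWTp53ΔIEC against CBPWTp53-floxed came without CBPWTp53-floxed replicates 3, 2 and 1, with 7 also without CBPWTp53ΔIEC replicate 2 and 4 without CBPWTp53ΔIEC replicate 3, and the 105 without CBPWTp53-floxed replicate 3. The cause was not tested.

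Between same-numbered libraries of different groups, 3 of 18 correlations of deviations were over 0.1 (range -0.526 to 0.548). With 3 mice a group these values cannot tell whether equal replicate numbers mark a shared litter or day. The replicate block gave 2, 0 and 32 genes in CBPAAp53ΔIEC against CBPAAp53-floxed, CBPAAp53ΔIEC against CBPWTp53ΔIEC and CBPWTp53ΔIEC against CBPWTp53-floxed, 304 for p53 deletion averaged and 0 for the interaction, and called none of the 10 genes.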
